A study of Mus musculus with 20 samples.

Results

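The genes Il12rb1, Il12rb2, Il18r1, Stat3, Stat4, Stat5a, Stat5b and Stat6 were followed in naive and stimulated mouse CD8 T cells. They encode both chains of the IL-12 receptor, the ligand-binding chain of the IL-18 receptor, and 5 STAT proteins. They were chosen by gene symbol, as the probe sets that the array's annotation pairs with these symbols. All 8 symbols were found, on 11 of 12488 probe sets, and all 8 passed the filter on dim genes, among 6279 of 8251 annotated genes that did.

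Levels were measured with oligonucleotide arrays, 1 sample on each of 20 arrays. Every culture came from OT-1 TCR transgenic C57Bl6 mice, 6 to 8 weeks old. Their CD8 T cells carry one transgenic receptor for an ovalbumin peptide on H-2Kb, so they model a T cell population of a single specificity. Lymph node cells low for CD44 were purified by removing other cells, and a naive sample (0 h) was taken. The remainder were cultured on latex microspheres coated with H-2Kb holding the peptide and with B7-1, a costimulatory ligand, a stimulus called Ag-B7. Cultures received murine rIL-12 (Ag-B7+IL-12), universal type I interferon (Ag-B7+IFNa/b) or nothing further (Ag-B7), and were harvested at 24, 48 and 72 h. At 72 h there was also a culture with trichostatin A, an inhibitor of histone deacetylases (Ag-B7+TSA). Human rIL-2, which signals through STAT5, was present in all cultures, and no culture without Ag-B7 was measured. Differences from naive cells therefore cannot be told apart from those that IL-2 or the culture time would give. The 48 h groups had 3 arrays with IL-12, 3 with IFNa/b and 4 with Ag-B7 alone, and naive cells had 3. There was 1 array for each of the remaining 7 groups. The labels call the replicates biological without naming separate animals, so p-values measure the spread between these samples only.

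IL-12 is made by dendritic cells and macrophages and acts on T cells and NK cells through a receptor built from IL-12Rb1 and IL-12Rb2. The kinases TYK2 and JAK2 on these chains phosphorylate STAT4, which enters the nucleus and binds the genes for IFN-gamma and other effector proteins. IL-18 acts beside IL-12 through IL-18R1 and its partner IL-18RAP by a route without STATs, through MYD88 and NF-kB. In CD8 T cells IL-12 or type I interferon can serve as a further signal that, with antigen and costimulation, directs the gain of effector function.

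STAT proteins bind palindromic DNA elements, so the promoters of these genes were searched, and 3 windows that held a match are shown. The sequences come from RefSeq on GRCm38.p6 and cover the 250 bases upstream of an annotated start. Capitals mark each match to TTCNNNGAA, the usual core element, or to the same ends, TTC and GAA, around 4 bases, the wider spacing that STAT6 prefers. Both motifs are palindromes, so 1 search reads both strands, and the motifs do not overlap each other. Il12rb2 (chr6:67376189-67376438, minus strand) held 1 match, TTCTCAGAA, whose first base lay 123 bases upstream of the start. Il18r1 has 3 annotated starts. The window of start 3 (chr1:40465756-40466005, plus strand) held TTCTGGGAA and TTCCCAGAA, with first bases 219 and 152 bases upstream. The window of start 1 (chr1:40465302-40465551, plus strand) held TTCTTTTGAA, 119 bases upstream, and the same site lay 188 bases upstream of start 2.
Il12rb2: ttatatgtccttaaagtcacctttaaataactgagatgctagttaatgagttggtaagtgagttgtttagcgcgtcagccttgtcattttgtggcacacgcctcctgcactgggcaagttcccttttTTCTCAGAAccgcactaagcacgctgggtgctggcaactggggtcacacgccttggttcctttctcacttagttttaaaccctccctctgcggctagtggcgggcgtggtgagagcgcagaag
Il18r1, start 3: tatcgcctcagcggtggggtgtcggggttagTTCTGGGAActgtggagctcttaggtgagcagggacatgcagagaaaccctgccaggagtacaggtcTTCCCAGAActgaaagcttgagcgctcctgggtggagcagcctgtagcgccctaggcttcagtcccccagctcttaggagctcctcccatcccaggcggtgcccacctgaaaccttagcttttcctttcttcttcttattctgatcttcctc
Il18r1, start 1: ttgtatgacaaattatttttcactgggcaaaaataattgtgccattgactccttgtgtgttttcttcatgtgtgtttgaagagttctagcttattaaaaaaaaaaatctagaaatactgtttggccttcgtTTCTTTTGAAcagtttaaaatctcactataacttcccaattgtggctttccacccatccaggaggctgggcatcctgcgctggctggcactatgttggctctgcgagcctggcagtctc
The table matched 7 of the 8 genes, the other being Il12rb1. The 8 windows of Stat3, Stat4, Stat5a, Stat5b and Stat6 held no match. Those of Stat5a and Stat5b lay inside the annotated gene spans (chr11:100859351-100885169 and chr11:100780731-100859004). The bases upstream of these spans were therefore not searched as their promoters. Among all 32851 RefSeq windows of this length, 7.02% held TTCNNNGAA and 5.85% held the wider motif. A match describes letters in a window only.

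Values are scanner intensities on an arbitrary linear scale. Every deposited array had been scaled to the same mean, so a level is relative to the total signal of its array, and probe sets are not compared with each other. Differences are log2 differences between group means after adding 46.4 to each value, which understates folds of dim probe sets, and ± is the standard error of limma. A gene was called at a Benjamini-Hochberg adjusted p below 0.05 in limma's moderated fit over 6279 genes. On their arrays Stat3, Stat4, Stat5a, Stat5b and Stat6 ranked between the 66.4th and 97.9th percentile of all probe sets, and the receptor genes ranged from the 15.3rd to the 95.1st.

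Some features of the arrays touch every difference from naive cells. The ratio of 3′ to 5′ actin signal, a sign of RNA integrity, was 1.00 to 1.15 on stimulated arrays, against 1.13, 2.06 and 1.61 on naive replicates 1, 2 and 3. The summed signal of 10 annotated CD8 T cell identity genes was 65863 to 133469 in stimulated cells and 74038 to 138047 in naive cells, and each of the 10 was above the 40th percentile on every array. The sums of 6 NK cell markers (206 to 922 in stimulated cells, 728 to 1873 in naive cells), 13 myeloid markers (2749 to 10308 and 15004 to 19300) and 3 erythroid markers (374 to 977 and 6338 to 14511) overlapped for NK cells and did not for the other two. The sums of 9 B cell markers were 5345 to 13095 in stimulated cells at 48 h and 14097 to 18250 in naive cells, and those of 2 markers of CD4 or gamma-delta T cells were 68.9 to 682 in stimulated cells and 597 to 1361 in naive cells. At 72 h the B cell sums reached 17550. Limma called 5, 6 and 5 of 8 tested B cell markers lower and 1 higher with IL-12, IFNa/b and Ag-B7. Of all genes 34%, 33.1% and 35.6% were called lower and 24.8%, 25.3% and 26.1% higher. In the same order 5, 6 and 7 of 9 myeloid markers were lower, and 2 of 3 NK markers each time. For erythroid cells 1 of 2, and for CD4 or gamma-delta T cells 1 of 1, was lower each time. Of 10 CD8 identity genes, 3, 2 and 2 were called lower and 1, 1 and 2 higher. On each naive array, 4 of the 6 NK markers were below the 40th percentile, as were 4 to 6 in stimulated cells. In RNA of mixed cells, fewer cells of a type and less RNA per cell cannot be told apart, and the part of these markers in the differences below was not tested. Scaling also mattered. Between Ag-B7 at 48 h and naive cells, the median gene differed by -0.23 as deposited, 0.04 after quantile normalization, 0.41 after median centring and 1.30 when arrays were scaled to 9 spiked-in bacterial control probe sets. Called genes split into 1640 higher and 2236 lower as deposited, 1941 and 1635 after quantile normalization, 2552 and 1001 after median centring, and 3781 and 95 with the controls. For Ag-B7+IL-12 against naive cells the same splits were 1559 and 2135, 1860 and 1575, 2395 and 920, and 3244 and 120. For Ag-B7+IFNa/b they were 1587 and 2077, 1864 and 1550, 2449 and 898, and 3817 and 72. The mean log2 signal of the controls was 13.39, 14.86 and 14.53 on naive replicates 1, 2 and 3, against 12.14 to 13.17 on stimulated arrays. It was highest on naive replicates 2 and 3, whose actin ratios were also highest. Scaling to the controls thus moves differences from naive cells upwards, and whether that follows array quality was not tested.

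At 48 h both IL-12 receptor genes were higher in stimulated than in naive cells, with or without a cytokine, and Il18r1 was higher with IL-12 than with either other stimulus. Stat3, Stat5a and Stat5b were lower than in naive cells relative to array signal. With arrays scaled to the spiked-in controls their differences were positive, and of these 9 only that of Stat5b with IFNa/b was called. As deposited, Stat4 and Stat6 were not called in any of the 6 comparisons at 48 h, while with the spiked-in controls both were called higher than in naive cells in all 3. Against naive cells, 2 of the 8 genes rose and 3 fell with Ag-B7, where 26.1% of all genes were called higher and 35.6% lower, 61.7% in all. With Ag-B7+IL-12, 3 rose and 3 fell (24.8% and 34% of all genes, 58.8% in all), and with Ag-B7+IFNa/b 2 rose and 4 fell (25.3% and 33.1%, 58.4% in all). These shares are near those of the whole array. The median difference of the 8 genes was -0.45, -0.38 and -0.46 for Ag-B7, Ag-B7+IL-12 and Ag-B7+IFNa/b, and that of all genes was -0.23, -0.27 and -0.25. The comparisons share the naive arrays.

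**Figure D1:**
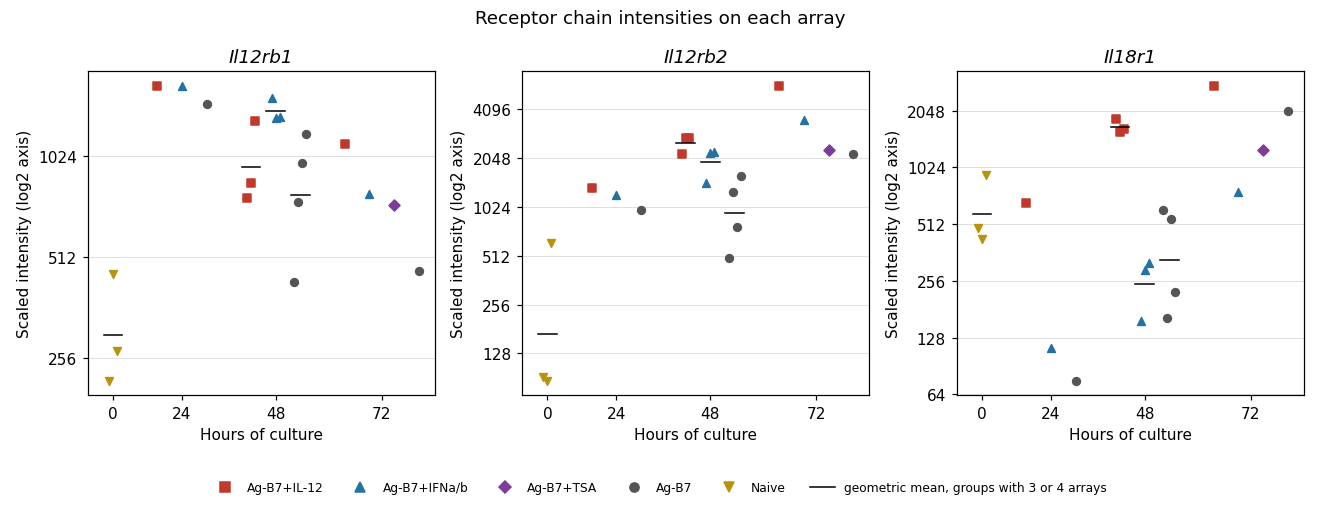
Scaled intensity of the receptor genes (log2 axis) against hours of culture, with 1 point per array and a black line at the geometric mean of groups with 3 or 4 arrays. Il12rb2 reached 2166 to 2721 with IL-12 at 48 h and 5722 at 72 h, and Il18r1 was at least 1588 on the 3 Ag-B7+IL-12 arrays at 48 h and at most 610.3 on every other 48 h array.

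Il12rb1 encodes the chain that the IL-12 and IL-23 receptors share. At 48 h it measured 768, 853 and 1305 on the Ag-B7+IL-12 arrays and 1525, 1334 and 1343 on the Ag-B7+IFNa/b arrays. It measured 431, 749, 979 and 1192 with Ag-B7, against 219, 456 and 268 in naive cells. Every cytokine array was above every naive array, and only Ag-B7 replicate 1 lay within the naive range. Il12rb1 rose 2.87-fold with IL-12 (log2 1.52 ± 0.33, limma adjusted p = 0.00115), 4.16-fold with IFNa/b (2.06 ± 0.33, adjusted p = 9.48e-05) and 2.40-fold with Ag-B7 (1.26 ± 0.31, adjusted p = 0.00246). Each call was kept in all 13 fits that left out 1 array and in all 14 other settings tried. Its second probe set, of a type (_f) that can match related sequences, measured 69.4 to 350.1 with IL-12, 128 to 313 with IFNa/b and 54.5 to 223 with Ag-B7, against 19.0 to 53.7 in naive cells. Those naive values lay between the 3.44th and 9.01st percentile of their arrays and near the 46.4 added to each value, so no fold is given for it.

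Among stimulated cells the order of mean Il12rb1 intensity at 48 h was Ag-B7+IFNa/b (1401 ± 108, SD), Ag-B7+IL-12 (976 ± 289) and Ag-B7 (838 ± 326), and no neighbours in this order were called different. The 3 arrays with IFNa/b were above all 4 with Ag-B7, at 1.73-fold (0.79 ± 0.31, 95% interval 0.13 to 1.45, limma adjusted p = 0.825). They were also above all 3 with IL-12, with a log2 difference of IL-12 minus IFNa/b of -0.54 ± 0.33 (interval -1.24 to 0.17, adjusted p = 0.999). The difference of IL-12 minus Ag-B7 was 0.26 ± 0.31 (adjusted p = 0.998). On the dimmer second probe set the arrays of every pair of these groups overlapped and no pair was called. Its mean intensity was 233 with IFNa/b, 179 with IL-12 and 168 with Ag-B7.

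Il12rb2 encodes the signalling chain that binds STAT4 and makes a T cell responsive to IL-12. At 48 h it measured 2166, 2719.9 and 2721 with IL-12 and 1446, 2214 and 2239.7 with IFNa/b. It measured 494, 1261, 773 and 1585 with Ag-B7, against 91.4, 86.9 and 614 in naive cells. The IL-12 arrays were above all Ag-B7 and naive arrays, the IFNa/b arrays overlapped with Ag-B7, and naive replicate 3 stood above Ag-B7 replicate 1. Naive replicates 1 and 2 were dim, at the 25.7th and 15.3rd percentile of their arrays. Folds over naive cells therefore depend on the 46.4 added to each value. Il12rb2 rose 11.2-fold with IL-12 (3.48 ± 0.50, limma adjusted p = 2.69e-05) and 8.60-fold with IFNa/b (3.10 ± 0.50, adjusted p = 8.24e-05) over naive cells. Without naive replicate 3 these were 4.24 and 3.87, and with array weights 2.28 and 1.98, called in each case. With Ag-B7 alone the rise was log2 2.10 ± 0.46 (adjusted p = 0.00106). It was 2.86 without that replicate, and with array weights, which gave it 3.90 and the other naive arrays 0.444 and 0.195, it was 0.85 and no longer called (adjusted p = 0.0609).

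The order of mean Il12rb2 intensity at 48 h was Ag-B7+IL-12 (2536 ± 320, SD), Ag-B7+IFNa/b (1967 ± 451), Ag-B7 (1028 ± 488) and naive (264 ± 303). IL-12 over Ag-B7 was 2.61-fold (1.38 ± 0.46, interval 0.40 to 2.36), with no overlap between arrays, and was not called in the fit without pairing (limma adjusted p = 0.405). The labels do not say whether a replicate number marks a shared experiment. Same-numbered arrays of these groups deviated together (correlation 0.276 to 0.280 over genes, 3 pairs), so the number was also tried as a block. Different-numbered arrays of Ag-B7 and IFNa/b reached 0.454, so such a value does not establish pairs. The blocks over 13 and 10 arrays also match IFNa/b arrays by number. With the replicate number as a block the difference was 1.62, with limma adjusted p of 0.142 over the 13 arrays and 0.00171 over the 10 arrays at 48 h. It was 0.00114 over the arrays of these groups alone, a setting chosen after seeing the data. The number of listed genes called in this comparison was 1 without the block and 2 with it at 48 h, and of all genes 39 and 81, or 191 over these groups alone. IFNa/b over Ag-B7 was 2.00-fold (1.00 ± 0.46, interval 0.02 to 1.98, adjusted p = 1.000), and IL-12 minus IFNa/b was 0.38 ± 0.50.

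Il18r1 encodes the chain that binds IL-18. At 48 h it measured 1844, 1588 and 1635 with IL-12 and 156, 294 and 319.9 with IFNa/b. It measured 610.3, 163, 544 and 223 with Ag-B7, against 491, 425 and 931 in naive cells. The IL-12 arrays lay close together and above all others, while the Ag-B7 arrays formed a high pair, replicates 1 and 3, and a low pair, replicates 2 and 4. Il18r1 rose 2.76-fold over naive cells with IL-12 (1.46 ± 0.41, limma adjusted p = 0.00642). With Ag-B7 it differed from naive cells by -0.71 ± 0.38 (interval -1.52 to 0.11, adjusted p = 0.120). Il18r1 was called for Ag-B7 in 1 of 13 fits without 1 array and in 1 of 14 other settings (limma adjusted p = 0.0426 and 0.00453). Its largest fall with 1 array left out was -0.96, without Ag-B7 replicate 1. With IFNa/b it fell 2.14-fold (-1.10 ± 0.41, adjusted p = 0.0308), a call lost without naive replicate 3 (-0.78, adjusted p = 0.145), without IFNa/b replicate 1 (-0.83, adjusted p = 0.135), after quantile normalization (-0.56, adjusted p = 0.269) and after median centring (-0.48, adjusted p = 0.315), and of opposite sign with the spiked-in controls (0.52).

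Il18r1 was higher with IL-12 than with Ag-B7 by log2 2.17 ± 0.38 (interval 1.36 to 2.98, limma adjusted p = 0.0123), where 0.382% of all genes were called higher and 0.239% lower, 0.621% in all. With the replicate block the difference was 2.00 and stayed called (adjusted p = 0.00355 to 0.0292). The call was lost when any 1 of the 3 IL-12 arrays was left out (adjusted p = 0.0833, 0.0509 and 0.0660), with differences of 2.11 to 2.21. Il18r1 was 5.90-fold higher with IL-12 than with IFNa/b (2.56 ± 0.41, interval 1.69 to 3.43, adjusted p = 0.00247), where 0.287% of genes were called higher and 0.653% lower, 0.94% in all. This call was kept in all 13 fits without 1 array. Among cells that also express Il18r1 are NK cells, and the sum of the 6 NK markers at 48 h was 399 to 576 with IL-12, 294 to 406 with IFNa/b and 206 to 437 with Ag-B7. Limma called 0 of 3 tested NK markers between these groups, and 0 had an unadjusted p below 0.05. In the same order the myeloid sums were 2811 to 3346, 4815 to 5109 and 2749 to 5478, and the B cell sums 5345 to 6938, 6958 to 9160 and 6826 to 13095. Of 9 tested myeloid markers limma called Ctss, lower with IL-12 than with Ag-B7 (-1.45, adjusted p = 0.0111) and than with IFNa/b (-1.55, adjusted p = 0.00391). The part of these markers in the Il18r1 difference was not tested.

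**Figure D2:**
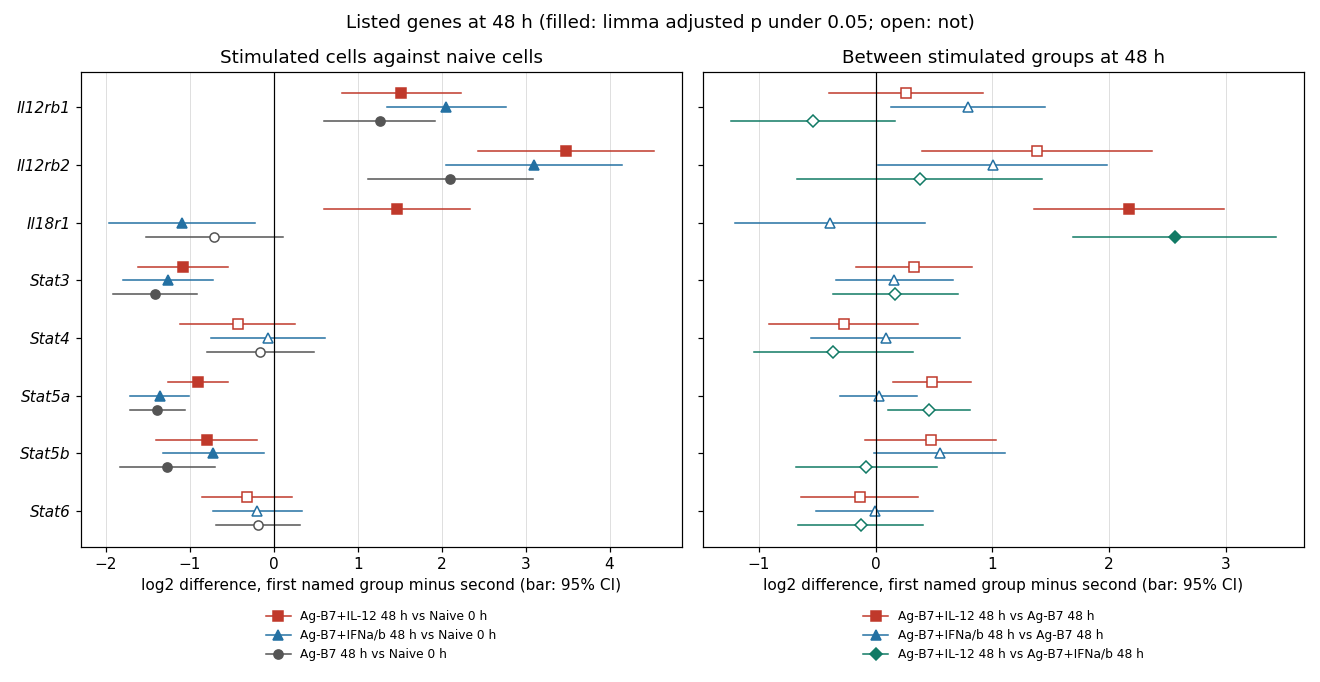
Log2 differences of the 8 genes with 95% intervals from limma, for stimulated over naive cells (left) and between stimulated groups at 48 h (right), with filled points for adjusted p below 0.05. Il18r1 is the filled gene on the right, and the falls of the STAT genes on the left are relative to array signal and become positive, mostly without a call, with the spiked-in controls.

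**Figure D3:**
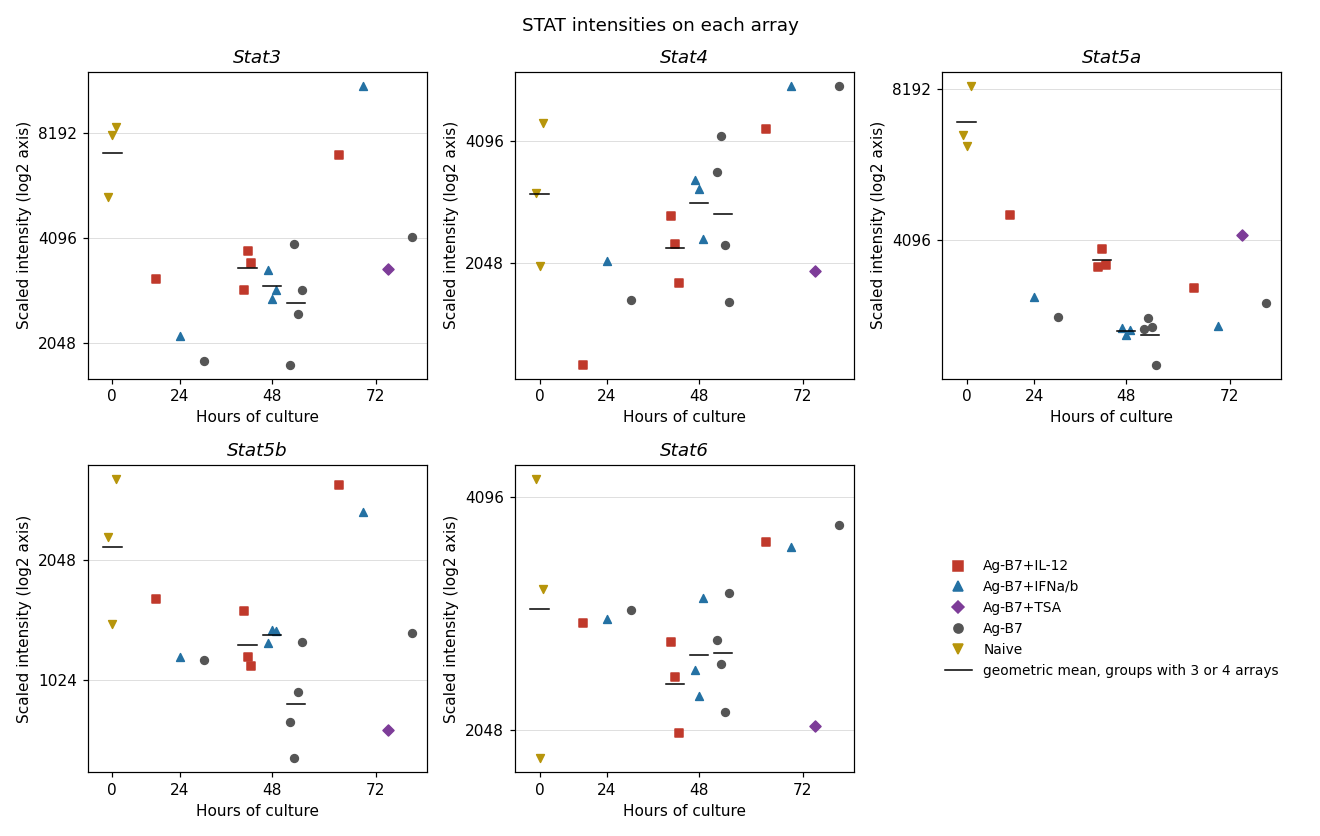
Scaled intensity of the STAT genes (log2 axis) against hours of culture, with 1 point per array and a black line at the geometric mean of groups with 3 or 4 arrays. Stat3, Stat5a and Stat5b lie below the naive level at 48 h relative to array signal, while their differences are positive and mostly not called with the spiked-in controls, and Stat3 stands at 11200 on the Ag-B7+IFNa/b array at 72 h.

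Stat4 encodes the STAT that the IL-12 receptor activates. At 48 h it measured 2678, 2287 and 1837 with IL-12 and 3290.03, 3129 and 2351 with IFNa/b. It measured 3437, 4217, 2277 and 1647 with Ag-B7, against 3057, 2016 and 4544 in naive cells. All groups overlapped. The log2 difference from naive cells was -0.43 ± 0.32 with IL-12, -0.07 ± 0.32 with IFNa/b and -0.16 ± 0.30 with Ag-B7, with limma adjusted p of 0.257, 0.859 and 0.662. IL-12 minus Ag-B7 was -0.27 ± 0.30, with an interval of -0.91 to 0.36 that leaves room for changes in either direction. The signs against naive cells turned after median centring, to 0.18, 0.55 and 0.49, and with the spiked-in controls Stat4 was called higher, at 1.10, 1.74 and 1.57 (adjusted p = 0.0478, 0.00140 and 0.00205). With array weights it was called lower with IL-12 (-0.92) and with Ag-B7 (-0.58).

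Stat5a and Stat5b encode closely related proteins that signal from the IL-2 receptor, and their genes are neighbours of Stat3 on chromosome 11 in RefSeq, with 0 annotated genes starting between each pair. The Stat5a probe sets are of types (_i and _f) that may also bind Stat5b RNA. Stat5a measured 3615, 3927 and 3660.2 with IL-12 and 2742.5, 2656 and 2716 with IFNa/b at 48 h. It measured 2726, 2861, 2757 and 2316 with Ag-B7, against 6624, 6291 and 8294 in naive cells. The naive arrays were highest, the IL-12 arrays came next without overlap with any other group, and the IFNa/b arrays lay within the Ag-B7 range. Relative to array signal Stat5a fell 1.87-fold with IL-12 (-0.90 ± 0.17, limma adjusted p = 0.000293), 2.57-fold with IFNa/b (-1.36 ± 0.17, adjusted p = 6.75e-06) and 2.61-fold with Ag-B7 (-1.39 ± 0.16, adjusted p = 2.32e-06), while with the spiked-in controls the differences were 0.66, 0.48 and 0.37 and not called. The IL-12 call was lost after median centring (-0.30, adjusted p = 0.267). The second probe set fell by log2 1.06, 1.57 and 1.58.

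With IL-12, Stat5a was 1.40-fold the Ag-B7 level (0.48 ± 0.16, interval 0.15 to 0.81) and 1.37-fold the IFNa/b level (0.46 ± 0.17, interval 0.10 to 0.81), without overlap of arrays. Neither passed adjustment over all genes (limma adjusted p = 0.363 and 0.580). Under the replicate block the first was 0.42 (adjusted p = 0.0795 to 0.584). The second probe set gave 0.52 over Ag-B7, also without overlap and not called (adjusted p = 0.589). Stat5a differed by 0.03 ± 0.16 between IFNa/b and Ag-B7 (interval -0.31 to 0.36), the narrowest bound among the 8 genes in that comparison.

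Stat5b measured 1524, 1172 and 1108 with IL-12 and 1265, 1364 and 1358 with IFNa/b at 48 h. It measured 799, 651, 957 and 1273 with Ag-B7, against 2337, 1416 and 3279.6 in naive cells. Ag-B7 and IFNa/b arrays were below all naive arrays, and IL-12 replicate 1 lay above naive replicate 2. Relative to array signal Stat5b fell 2.41-fold with Ag-B7 (-1.27 ± 0.27, limma adjusted p = 0.000720), 1.74-fold with IL-12 (-0.80 ± 0.28, adjusted p = 0.0243) and 1.65-fold with IFNa/b (-0.72 ± 0.28, adjusted p = 0.0397), against 0.44, 0.71 and 1.07 with the spiked-in controls, the last called (adjusted p = 0.0494). The IL-12 and IFNa/b calls were fragile. All 3 calls were lost after median centring (adjusted p = 0.0972, 0.651 and 0.821). The IL-12 and IFNa/b calls were lost without naive replicate 1 (-0.76 and -0.68) or 3 (-0.52 and -0.44). The IL-12 call was also lost without IL-12 replicate 2 or 3 (adjusted p = 0.0662 and 0.0773), and the IFNa/b call without any 1 of the IFNa/b replicates (0.0961, 0.0719 and 0.0741).

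Stat3 encodes the STAT used by the receptors of the IL-6, IL-10 and IL-21 type. At 48 h it measured 2901, 3755 and 3477 with IL-12 and 3316, 2742 and 2910.49 with IFNa/b. It measured 1771, 3946, 2470.3 and 2907 with Ag-B7, against 5357, 8089 and 8526 in naive cells. All stimulated arrays were below all naive arrays, and the stimulated groups overlapped each other. Relative to array signal Stat3 fell 2.12-fold with IL-12 (-1.08 ± 0.25, limma adjusted p = 0.00183), 2.39-fold with IFNa/b (-1.25 ± 0.25, adjusted p = 0.000599) and 2.67-fold with Ag-B7 (-1.41 ± 0.24, adjusted p = 0.000107), against 0.48, 0.59 and 0.35, not called, with the spiked-in controls. The first 2 calls were lost after median centring (adjusted p = 0.162 and 0.0666) and without naive replicates 2 and 3 together (-0.67 and -0.84, adjusted p = 0.129 and 0.0640). The second probe set was called for Ag-B7 only (-0.97 ± 0.34, adjusted p = 0.0199), and gave -0.55 and -0.75 with IL-12 and IFNa/b (adjusted p = 0.194 and 0.0826).

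Stat6 encodes the STAT of the IL-4 receptor. At 48 h it ranged from 2025 to 2654 with IL-12, 2266 to 3027 with IFNa/b and 2155 to 3074 with Ag-B7, against 1882 to 4317 in naive cells, and all ranges overlapped. Its differences from naive cells were -0.32 ± 0.25, -0.20 ± 0.25 and -0.19 ± 0.24 (limma adjusted p = 0.282, 0.515 and 0.507), and turned positive after median centring (0.29, 0.42 and 0.46). With the spiked-in controls Stat6 was called higher, at 1.20, 1.61 and 1.54 (adjusted p = 0.0357, 0.00410 and 0.00341). Naive replicate 2 was the lowest naive array at 1882, and without it Stat6 was called lower with IL-12 (adjusted p = 0.0194) and with Ag-B7 (adjusted p = 0.0429). Of 14 other settings, 12 kept the negative sign in each comparison. Stat6 was called in 3, 2 and 2 of the 14, the spiked-in controls being 1 in each. The differences were lowest without naive replicates 2 and 3 together (-0.87, -0.74 and -0.73).

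Between IFNa/b and Ag-B7, limma called 0 of the 8 genes, and 0.414% of all genes higher and 0.0159% lower (0.43% in all). Before adjustment 2 of the 8, Il12rb1 and Il12rb2, had p below 0.05, as did 286 of 6279 genes. Between IL-12 and Ag-B7, 3 of the 8 (Il18r1, Il12rb2 and Stat5a) and 364 genes had unadjusted p below 0.05. Median differences of the 8 genes were 0.40 for IL-12 over Ag-B7, 0.12 for IFNa/b over Ag-B7 and 0.05 for IL-12 over IFNa/b, where those of all genes were -0.01, 0.00 and -0.01. The first and second of these share the Ag-B7 arrays.

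The arrays at 24 and 72 h had no replicates, so their differences carry no test and are given where they reached 2-fold. A gene with several probe sets is counted by the brightest. At 24 h Il12rb1 measured 1657 with IL-12 and 1666 with IFNa/b, against 1469 with Ag-B7, all above the naive range and above the Ag-B7 values at 48 h. Il12rb2 measured 1346 and 1209.8, against 979, in the same order, and Il18r1 measured 662 and 113, against 75.7. The Ag-B7 array at 24 h differed from naive cells at least 2-fold upwards for Il12rb1 (log2 2.13) and Il12rb2 (2.16), and downwards for Il18r1 (-2.36), Stat3 (-1.95) and Stat5a (-1.27), where 19.3% of genes were as far higher and 32.5% lower. With the spiked-in controls Stat3 and Stat5a were 0.06 and 0.74 above naive cells instead. IL-12 at 24 h exceeded Ag-B7 2-fold for Il18r1 alone of the 8, at 5.80-fold (2.15% of genes higher, 1.27% lower), while IFNa/b over Ag-B7 reached 2-fold for none of them (1.69% and 1.21%). The Il18r1 difference with IL-12 was thus present on the first array measured, at log2 2.54.

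**Figure D4:**
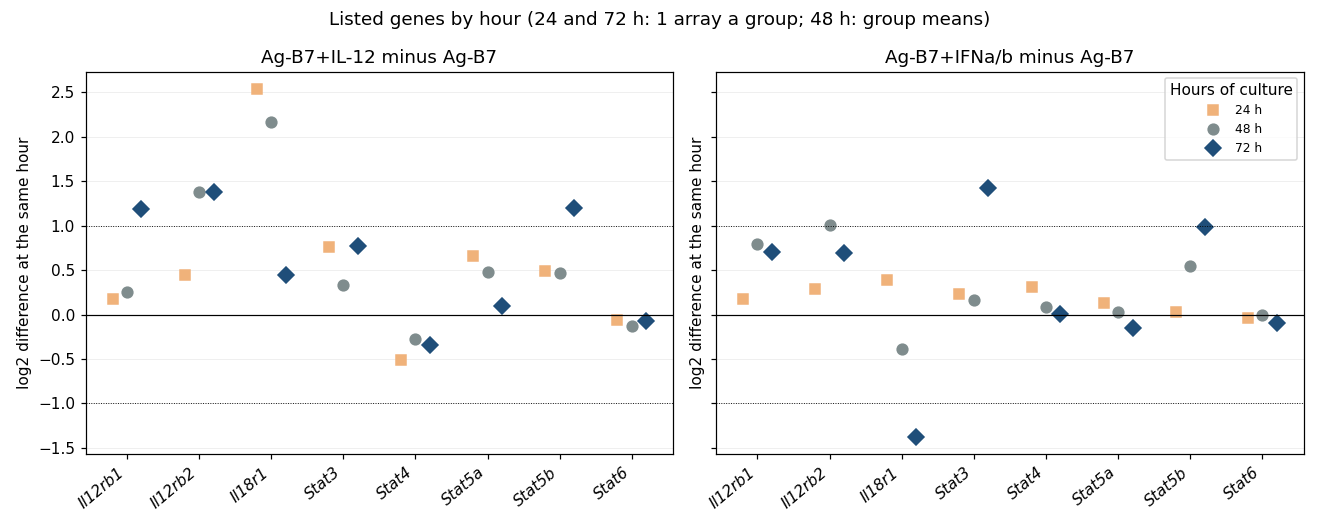
Log2 difference of each gene between a cytokine group and Ag-B7 at the same hour (24, 48 and 72 h), with dotted lines at a 2-fold difference. For Il18r1 the IL-12 difference was 2.54, 2.17 and 0.45 at the 3 times, and for Il12rb2 it was 0.44, 1.38 and 1.38. The 24 and 72 h points are 1 array over 1 array, and Il18r1 was dim with Ag-B7 at 24 h (75.7).

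From 48 to 72 h Il12rb2 and Il18r1 both differed upwards with Ag-B7 alone. On that 72 h array the marker sums were also above the 48 h arrays of Ag-B7, at 17550 against 6826 to 13095 for B cells, 10308 against 2749 to 5478 for myeloid cells and 631 against 206 to 437 for NK cells. On the IL-12, IFNa/b and TSA arrays at 72 h the B cell sums were 10366, 14106 and 9670.4, the myeloid sums 6496, 9028 and 6781, and the NK sums 922, 530.2 and 477. The part of these markers in the 72 h differences was not tested. At 72 h Il12rb2 measured 5722 with IL-12, 3534 with IFNa/b and 2282 with TSA, against 2177 with Ag-B7. Il18r1 measured 2785 with IL-12, 754 with IFNa/b and 1263 with TSA, against 2032 with Ag-B7. Il18r1 with Ag-B7 was 5.40-fold its 48 h level, so the IL-12 array was only log2 0.45 above it. With IFNa/b Il18r1 was 2.60-fold below Ag-B7 (-1.38). In contrast, IL-12 over Ag-B7 in Il12rb2 was 1.38 at 48 h and 1.38 at 72 h.

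Against the 48 h mean of the same stimulus, 3 genes were at least 2-fold higher on each 72 h array and none lower by its brightest probe set. These were Il12rb2 (1.17), Il18r1 (2.43) and Stat4 (1.03) with Ag-B7, where 9.16% of genes were higher and 6.59% lower. With IL-12 they were Il12rb2 (1.17), Stat3 (1.06) and Stat5b (1.30; 9.3% and 6.39%), and with IFNa/b Il18r1 (1.45), Stat3 (1.89) and Stat5b (1.00; 6.75% and 4.2%). From 24 to 48 h with Ag-B7, Il18r1 was the gene past 2-fold (1.66, where 4.09% of genes were higher and 1.54% lower). The dimmer Il12rb1 probe set was also past 2-fold from 48 to 72 h, lower with Ag-B7 and higher with IL-12. At 72 h it measured 25.1 with Ag-B7, at the 10.5th percentile of that array, and 370 with IL-12.

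Stat3 at 72 h measured 7065 with IL-12, 11200 with IFNa/b and 3343 with TSA, against 4128 with Ag-B7. The IFNa/b array was the highest of all 20 for Stat3 and for its second probe set, at 9988. Stat5b measured 3163 with IL-12, 2708 with IFNa/b and 765 with TSA, against 1346 with Ag-B7. At 72 h IL-12 over Ag-B7 was past 2-fold for Il12rb1 (1.18), Il12rb2 (1.38) and Stat5b (1.20), where 5.22% of genes were higher and 4.14% lower. IFNa/b over Ag-B7 was past it for Stat3 (1.43) and, downwards, Il18r1 (3.93% and 3.57%). Il12rb1 measured 1118 with IL-12, 790 with IFNa/b and 731 with TSA, against 466 with Ag-B7 at 72 h.

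By the brightest probe set of each gene, TSA over Ag-B7 at 72 h was past 2-fold for Stat4 alone. Stat4 was 2.81-fold lower (-1.49), where 7.09% of genes were higher and 8.97% lower. The dimmer Il12rb1 probe set was also past 2-fold, at 116 with TSA, above 25.1 with Ag-B7 and below 370 with IL-12. Stat4 measured 1962 with TSA, against 5607 with Ag-B7, and 4394 and 5618 with IL-12 and IFNa/b. The TSA array was lower than the IL-12 array at least 2-fold for Il12rb2 (-1.31), Il18r1 (-1.11), Stat3 (-1.07), Stat4 (-1.14) and Stat5b (-1.98), where 8.6% of genes were higher and 9.87% lower. Stat5a was the gene with TSA above both, by 0.44 over Ag-B7 and 0.35 over IL-12.

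Over the 11 group means the 8 genes did not share one profile. The highest correlation between members was Stat3 with Stat5b (Pearson r = 0.808), and the lowest Il12rb2 with Stat5a (-0.574). Both IL-12 receptor genes correlated at 0.367 and Stat5a with Stat5b at 0.185. The genes most like each member among the 6279 were Aars and Tars for Il12rb1 (0.975 and 0.963), Rnh1 and Trabd for Il12rb2 (0.960 and 0.948), and Skap2 and Nsf for Il18r1 (0.955 and 0.932). They were Il10rb and Bcl2l11 for Stat4 (0.969 and 0.962), Arnt and Ppm1b for Stat3 (0.939 and 0.937), Pex14 and Shroom3 for Stat5a (0.938 and 0.935), Dnajc1 and Zeb1 for Stat5b (0.934 and 0.909), and Ddx50 and Nsa2 for Stat6 (0.955 and 0.938). The points share scaling, and 7 of the 11 rest on 1 array, so these values describe the arrays only.

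Around the receptors, 19 of 29 listed signalling partners of IL-12 and IL-18 could be tested. As deposited, 3 rose and 7 fell with IL-12 against naive cells, 2 and 8 with IFNa/b, and 1 and 8 with Ag-B7. Of all genes 24.8%, 25.3% and 26.1% were called higher and 34%, 33.1% and 35.6% lower in these comparisons, shares that also stand behind the next lists. The direction depended on scaling, since with the spiked-in controls 9, 11 and 12 rose and none fell. The whole array shifted likewise with these controls, where 3244, 3817 and 3781 of 6279 genes were called higher and 120, 72 and 95 lower. These counts of all genes also stand behind the control-scaled counts against naive cells in the next lists. The kinase gene Jak1 had differences of -1.86, -1.74 and -1.65, which became -0.30, 0.11 and 0.11 with the controls. Map3k7, which encodes the kinase TAK1 downstream of IL-18, rose by 1.56 with IFNa/b and 1.27 with Ag-B7 and was higher under all 4 scalings. Between IL-12 and Ag-B7, 3 of the 19 partners had unadjusted p below 0.05, as did 364 of 6279 genes. After adjustment 1 partner was called, where 0.621% of all genes were called. It was Gadd45g, known to carry IL-12 and IL-18 signals to p38 in T cells, at 3.89-fold (1.96 ± 0.34, limma adjusted p = 0.0120; adjusted p = 0.0940 with the controls).

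Of 15 tested receptor chains upstream of the other STATs, 3 rose and 9 fell with IL-12, 3 and 9 with IFNa/b, and 1 and 9 with Ag-B7 against naive cells. With the spiked-in controls the counts were 6 and 3, 6 and 4, and 6 and 2. Il2ra, the high-affinity IL-2 receptor chain, rose 17.1-fold, 11.5-fold and 8.01-fold. Ifngr2, a chain of the IFN-gamma receptor, fell, with differences of -3.98, -3.70 and -3.64, and was also lower with the controls (-2.53, -2.08 and -2.06). Il6ra, through which IL-6 reaches STAT3, was lower with IL-12 than with Ag-B7 (-1.53 ± 0.30, limma adjusted p = 0.0244; adjusted p = 0.0707 with the controls).

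Among 15 tested inhibitors of JAK-STAT signalling, 4 rose and 6 fell with IL-12, 5 and 5 with IFNa/b, and 3 and 6 with Ag-B7 against naive cells, and with the spiked-in controls the counts were 9 and 0, 10 and 0, and 9 and 1. Socs3, which restrains STAT3 and IL-12Rb2 signalling, was lower by 1.78, 2.43 and 2.61, a difference that was not called with the controls. Usp18, an interferon-induced inhibitor of the type I interferon receptor, was the gene of this list called between stimulated groups. It was higher than with Ag-B7 both with IL-12 (18.4-fold, limma adjusted p = 3.26e-05) and with IFNa/b (70.9-fold, adjusted p = 3.20e-07), calls kept under all 4 scalings. It was lower with IL-12 than with IFNa/b (-1.95 ± 0.44, limma adjusted p = 0.0454), a call lost after quantile normalization and median centring (adjusted p = 0.181 and 0.0998).

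Genes known as STAT4 targets form a list chosen with earlier results of these data known. It includes Il12rb2 and Il18r1, so its counts and medians describe the list and are no separate support. Its median difference between IL-12 and Ag-B7 was 1.24, where that of all genes was -0.01. Where 0.382% of all genes were called higher with IL-12 than with Ag-B7, 6 of 16 tested rose, Il18r1 among them. Of these, Hopx, a transcriptional cofactor of type 1 T cells, rose 5.55-fold, and Furin, a protease induced by IL-12, rose 3.96-fold (limma adjusted p = 3.12e-05 for both). With the spiked-in controls 3 of 16 were called. Between IFNa/b and Ag-B7, 1 of the 16 (Ifng) was called (0.414% of all genes higher), with a median of 0.40, and it was not called after median centring. Between IL-12 and IFNa/b, 3 were called (Il18r1, Hopx and Furin, where 0.287% of all genes were higher), with a median of 0.55, and 2 with the controls. Of 16 STAT5 targets, limma called 0 between any stimulated groups, with 5, 4 and 4 at unadjusted p below 0.05 for IL-12 over Ag-B7, IFNa/b over Ag-B7 and IL-12 over IFNa/b. After quantile normalization 1 was called between IFNa/b and Ag-B7. Against naive cells 7 rose and 4 fell with IL-12, 8 and 5 with IFNa/b, and 7 and 5 with Ag-B7, where with the controls 12, 12 and 11 rose and 1, 0 and 0 fell. Gzmb, the cytotoxic protease granzyme B, had the largest rise of them, at log2 6.68, 6.72 and 5.75.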

How the data were processed

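Per the labels' protocols, biotinylated cRNA from 10 ug of total RNA was hybridised to 1-colour Affymetrix arrays. The authors deposited 1 linear intensity for each of 12488 probe sets on 20 arrays, made with MAS5 per the submitters' processing notes; its version is not given in the sources used here. A mean taken after trimming 2% at each end was 1000.46 to 1000.74 on every array, and the median was 232 to 507. Of the probe sets, 10833 had 1 gene symbol in the platform annotation, 396 had several, 66 were controls and 1193 were not listed. Only probe sets with 1 symbol were used, and the one with the highest mean log2 value stood for its gene.

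Values were taken as log2(intensity + 46.4), the pseudocount being the median over arrays of the 20th percentile. Genes had to exceed the 40th percentile of an array on 3 or more of 13 arrays, those of the replicated groups. Groups followed the labels. Those 13 arrays entered 1 fit of group means with a variance trend, run in limma 3.58.1 under R 4.3.3 (9 residual degrees of freedom, median residual SD 0.372), and two-sided p-values were adjusted over 6279 genes. Groups with 1 array were described by a 2-fold difference. The number of arrays limits the precision.

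The 8 genes and the gene lists were chosen with earlier results of these data known. All 8 genes are reported. From each list the text names genes among the up to 4 called genes of largest difference whose arrays did not overlap, and for likeness the genes with the highest correlation over group means. The fit was tested on simulated data. Same-numbered arrays deviated together for IL-12 and Ag-B7 at 48 h (correlations 0.276 to 0.280, against -0.302 to 0.176 for different numbers). Fits with the number as a block were therefore added, although the labels do not state pairs. For IFNa/b and Ag-B7 the values were -0.0966 to 0.112, against -0.272 to 0.454 for different numbers. No pairing was assumed there, and a correlation near 0.28 does not by itself mark a pair. Alternatives were other scalings, pseudocounts and filters, other ways of using probe sets, array weights, no variance trend, only the compared groups, replicate blocks and leaving out arrays. Promoters were searched in RefSeq sequences of GRCm38.p6.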

Additional observations from a re-analysis of the deposited data

Results flagged for a closer look

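In 1 of 11 checks of the Ag-B7 group at 48 h, 1 for each probe set of the 8 genes, an array stood apart from the other 3. On the second probe set of Il12rb1, Ag-B7 replicate 1 measured 54.5, while the others measured 208, 223 and 188, and its gap to the nearest made up 0.857 of the range. On the brighter probe set the same array was also the lowest of its group, at 431. Chance marks about 1 group in 20.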

How the results depend on the processing

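Of the tested differences of the 8 genes recomputed under the alternatives, 1225 kept their direction and side of the threshold. With the direction kept, 30 lost the call and 14 gained it. A further 51 turned sign, whether or not the call changed. The cause was not tested. Median centring left 3 of the 8 genes called for IL-12 and 3 for IFNa/b against naive cells, where 6 and 6 were called as deposited. It turned Stat4 to 0.49, 0.18 and 0.55 and Stat6 to 0.46, 0.29 and 0.42 for Ag-B7, IL-12 and IFNa/b against naive cells. The spiked-in controls turned Stat3 to 0.35, 0.48 and 0.59, Stat4 to 1.57, 1.10 and 1.74, Stat5a to 0.37, 0.66 and 0.48, Stat5b to 0.44, 0.71 and 1.07, and Stat6 to 1.54, 1.20 and 1.61 in the same order, and Il18r1 to 0.83 and 0.52 for Ag-B7 and IFNa/b. They also turned Stat6 for IFNa/b over Ag-B7 (0.075), Stat3 for IL-12 over IFNa/b (-0.11), and Stat3 (0.058) and Stat5a (0.74) for Ag-B7 at 24 h over naive cells.

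All genes called for IL-12 over Ag-B7 numbered 39, and 23 after median centring, 16 with the controls, 62 with array weights and 25 without the variance trend. Array weights gave 57 for IFNa/b over Ag-B7, where 27 were called without them, and 103 for IL-12 over IFNa/b, where 59 were. They also called Stat4 lower with IL-12 (-0.92) and Ag-B7 (-0.58) than in naive cells, while the spiked-in controls called Stat4 and Stat6 higher than in naive cells in all 3 comparisons. Without naive replicates 2 and 3 together, a setting chosen after seeing the data that takes the remaining array to vary like the other groups, 2228, 2212 and 2163 genes were called for Ag-B7, IL-12 and IFNa/b against naive cells, where 3876, 3694 and 3664 were called with them.

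With the replicate block over the 10 arrays at 48 h, 2 of the 8 and 81 genes were called for IL-12 over Ag-B7, 1 and 103 for IFNa/b over Ag-B7, and 113 genes for IL-12 over IFNa/b. With the block over the compared groups alone, chosen after seeing the data, these were 2 and 191, and 1 and 71. The gene added for IFNa/b was Il12rb2 (1.25, limma adjusted p = 0.00762 and 0.0187), although those numbers were not taken as pairs. Under the block, IFNa/b over Ag-B7 turned sign for Stat4 (-0.15), Stat5a (-0.039) and Stat6 (0.075), and Stat4 in Ag-B7 over naive cells became 0.077. The block changed no other call among the 8 genes.

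Leaving out 1 array at a time gave 0 to 1 of the 8 and 16 to 54 of all genes for IL-12 over Ag-B7, and 14 to 32 genes for IFNa/b over Ag-B7. Differences that crossed 0 were those of Ag-B7 over naive cells for Stat4 (-0.45 to 0.13) and Stat6 (-0.50 to 0.088), of IFNa/b over naive cells for Stat4 (-0.36 to 0.22) and Stat6 (-0.51 to 0.079), of IL-12 over Ag-B7 for Il12rb1 (-0.0094 to 0.45), of IFNa/b over Ag-B7 for Stat3 (-0.033 to 0.35), Stat4 (-0.15 to 0.30), Stat5a (-0.039 to 0.060) and Stat6 (-0.13 to 0.078), and of IL-12 over IFNa/b for Stat5b (-0.21 to 0.0087). Of differences at single arrays past 2-fold, Ag-B7 at 48 over 24 h had 2 of the 8 genes after median centring and 2 with the controls (1 as deposited), IL-12 at 72 over 48 h had 1 after median centring (3), and with the controls Ag-B7 at 72 over 48 h had 1 (3), IFNa/b at 72 over 48 h had 5 (3), and IFNa/b over Ag-B7 at 72 h had 4 (2). The share of all genes past 2-fold was not computed under these scalings. These counts therefore cannot be told apart from a shift of the whole array.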
